A study of Mus musculus with 51 samples.

Results

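The genes examined here mark the oligodendrocyte lineage, the glial fate that these cultures were not directed to take. They are Olig2, Olig1, Nkx2-2, Pdgfra, Cspg4, Cnp, Mbp, Mag and Mog, 9 of the 22359 protein-coding genes of the annotation. They were chosen by name, and every peak that overlapped the gene body extended by 20 kb on each side was taken from all 6 peak lists. These windows held 57, 46 and 49 H3K27ac peaks in aNPC, eA and lA, out of 79413, 83433 and 92700 in the whole lists. They held 89, 98 and 93 H3K4me1 peaks, out of 154238, 185478 and 208333.

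The cells were C57/BL-6 mouse embryonic stem cells that had been turned into astrogliogenic neural progenitors (aNPC), which were kept in EGF and FGF-2. Progenitors placed in medium with 1% FBS and LIF gave early astrocytes (eA) after 1 day and late astrocytes (lA) after 5 days. The labels of these 3 groups name no knockdown or transgene. The peaks of the 2 replicates of a stage and mark were called on merged reads, so each stage has 1 list per mark and no comparison of stages could be checked against replicates. In a bulk culture, fewer cells with a mark and a weaker mark per cell cannot be told apart.

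Oligodendrocytes make the myelin of the central nervous system and arise from precursors that share ancestors with astrocytes. OLIG2 and OLIG1 are basic helix-loop-helix factors and NKX2-2 is a homeodomain factor of that lineage, PDGFRA is the receptor through which PDGF drives precursor division, and Cspg4 encodes the NG2 proteoglycan of the precursor surface. Cnp, Mbp, Mag and Mog encode proteins of the myelin sheath or of the cell that builds it. H3K27ac marks active promoters and enhancers, whereas H3K4me1 marks enhancers that may be active or only primed.

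The level of a peak is given as the number of DNA fragments at its summit divided by the genome background of its list, which was 4.35, 3.74 and 4.09 fragments for H3K27ac in aNPC, eA and lA and 4.02, 4.84 and 4.66 for H3K4me1. Intervals are exact 95% Poisson intervals of the fragment count and cover counting error only. At sites with a peak at all 3 stages, the median H3K27ac level relative to aNPC was 1.10 in eA and 0.723 in lA (log2 0.14 and -0.47), and the median H3K4me1 level was 0.870 and 0.837 (log2 -0.20 and -0.26). A fall has to be read against these shifts. At the genome background, the weakest H3K27ac peaks of the 3 lists had 12, 11 and 12 fragments, a level of 2.76, 2.94 and 2.93. The astrocyte gene Gfap, which encodes the intermediate filament of astrocytes, had highest H3K27ac levels of 67.6, 119 and 113 at the 3 stages in that order. Of the 12 genes in the astrocyte list, 2 (16.7%) were at or below 0.5 times the aNPC level in lA, beside 42.0% of all genes with peaks at both stages. They were Slc1a3, the gene of a glutamate transporter, which went from 102 to 24.2 (0.237), and S100b, the gene of a calcium-binding protein, from 43.7 to 19.8 (0.453). With the shift at shared sites taken out, Slc1a3 alone was, at 0.327.

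For each of 6 genes, the bases around the highest H3K27ac summit outside exons and other genes are shown, because these are the regions whose change the results describe. The sequences are 200 bp long, from the mm9 genome, on the strand of the gene and 5′ to 3′. Capitals mark matches to 8 short sets of letters described later, and only the Cspg4 site held one. The regions are chr16:91223386-91223585 (plus strand, upstream of Olig2), chr16:91263598-91263797 (plus strand, upstream of Olig1), chr2:147003733-147003932 (minus strand, an intron of Nkx2-2), chr9:56729882-56730081 (plus strand, an intron of Cspg4), chr11:100443346-100443545 (plus strand, an intron of Cnp) and chr17:37165708-37165907 (minus strand, upstream of Mog).
Olig2 upstream site: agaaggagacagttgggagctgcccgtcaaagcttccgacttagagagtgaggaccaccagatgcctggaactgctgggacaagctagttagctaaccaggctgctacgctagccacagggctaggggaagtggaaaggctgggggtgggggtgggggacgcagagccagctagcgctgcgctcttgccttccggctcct
Olig1 upstream site: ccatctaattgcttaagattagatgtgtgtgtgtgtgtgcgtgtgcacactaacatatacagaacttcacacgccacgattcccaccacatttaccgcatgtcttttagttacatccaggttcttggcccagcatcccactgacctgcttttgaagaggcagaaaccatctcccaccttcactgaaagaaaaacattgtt
Nkx2-2 intronic site: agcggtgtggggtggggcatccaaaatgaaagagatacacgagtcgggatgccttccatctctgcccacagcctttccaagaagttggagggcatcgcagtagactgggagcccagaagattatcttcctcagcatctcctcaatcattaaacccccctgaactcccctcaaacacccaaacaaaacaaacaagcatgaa
Cspg4 intronic site: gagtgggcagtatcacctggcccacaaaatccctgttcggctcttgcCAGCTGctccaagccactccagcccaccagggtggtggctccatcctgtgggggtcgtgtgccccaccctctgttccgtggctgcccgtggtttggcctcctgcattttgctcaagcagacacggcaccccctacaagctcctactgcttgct
Cnp intronic site: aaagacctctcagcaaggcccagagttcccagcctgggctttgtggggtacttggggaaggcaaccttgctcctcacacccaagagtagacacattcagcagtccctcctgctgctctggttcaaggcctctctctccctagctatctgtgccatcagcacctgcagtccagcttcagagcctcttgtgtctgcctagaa
Mog upstream site: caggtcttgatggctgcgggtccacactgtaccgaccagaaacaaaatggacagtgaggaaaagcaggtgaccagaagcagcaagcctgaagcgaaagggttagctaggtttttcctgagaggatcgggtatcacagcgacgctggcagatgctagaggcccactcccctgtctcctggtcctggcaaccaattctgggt

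Their GC content was 61.0%, 44.5%, 50.5%, 62.0%, 56.0% and 55.0%, in that order. The Cnp site held no CpG dinucleotide, and the others held 4 to 7. Over all H3K27ac peaks in the windows of aNPC, eA and lA, the median GC content was 52.0%, 54.5% and 53.0%, beside 49.0%, 49.5% and 49.0% in the whole lists.

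Of the 5 progenitor genes, all but Pdgfra carried their strongest acetylation before differentiation. The highest H3K27ac level of the window in eA, relative to that in aNPC, was 0.329 at Olig2, 0.475 at Olig1, 0.398 at Nkx2-2 and 0.155 at Cspg4. These 4 of the 8 genes with a peak at both stages were at or below 0.5 times their aNPC level, as were 6.83% of the 16100 coding genes with peaks at both stages. In lA, Olig2 (0.176), Olig1 (0.193) and Cspg4 (0.226) were at or below 0.5, which is 3 of 7, and no H3K27ac peak was left at Nkx2-2. The Cnp ratio of 0.753 in that count rests in lA on a peak in the neighbour Dnajc7, and without peaks in the body of another gene Cnp stood at 16.6 against 40.2 (0.413), which made the count 4 of 7. The shares of all genes given here keep such peaks. A drop to 0.5 or less was common in lA, where 42.0% of 15949 genes showed it. The count of 3 of 7 is therefore close to the background. The size of the drop was less common. A ratio as low as that of Olig2, Olig1 or Cspg4 was reached by 1.55%, 1.98% and 3.47% of those genes. Those genes were not matched for aNPC level, so the share among genes that started as high is not known. No member was 2 times or more higher in lA than in aNPC, beside 5.51% of genes. With the shift at shared sites taken out, the lA ratios were 0.244, 0.267 and 0.313. The same count of 3 of 7 then stood beside 17.0% of genes. Mbp, at 2.22, was then 1 of 7 at 2 times or more, beside 9.91% of genes.

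**Figure D1:**
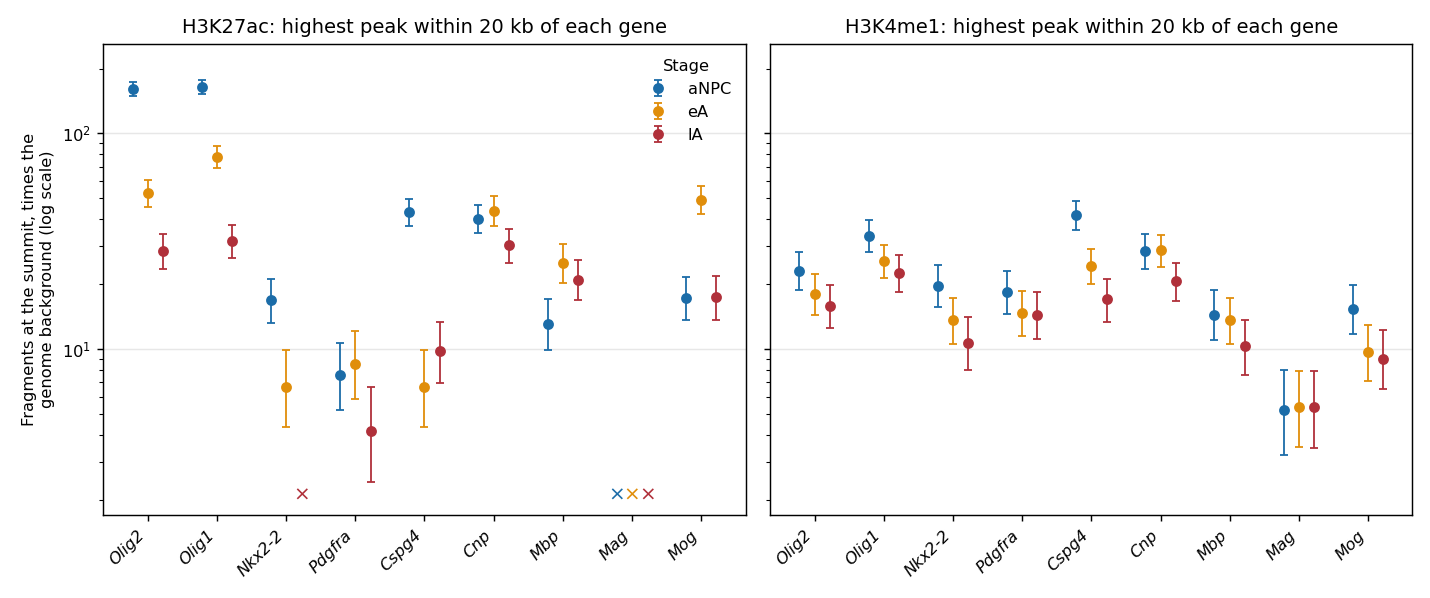
The highest H3K27ac (left) and H3K4me1 (right) peak within 20 kb of each gene, as fragments at the summit over the genome background on a log scale, with exact 95% Poisson intervals. Colours give the stage and a cross marks a window with no peak; the Olig2 and Olig1 H3K27ac levels of 161 and 164 in aNPC stand far above all later levels of the same genes.

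Olig2 lies on chr16:91225795-91228922 (plus strand, ENSMUSG00000039830.8) with no other coding gene in its window. In aNPC, 8 of its 11 H3K27ac peaks formed a block from 3282 bp upstream to 8756 bp downstream of the start site, with levels of 69.9 to 161. The strongest, at chr16:91222815-91224274 with its summit 2309 bp upstream, held 700 fragments, a level of 161 (149 to 173). By level it ranked 51 among the 79413 H3K27ac peaks of aNPC.

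In eA, 5 peaks were left, and the strongest at chr16:91225902-91227185, over the first exons, had a level of 52.9 (45.8 to 60.8). In lA the strongest, at chr16:91226003-91226918, had a level of 28.4 (23.4 to 34.0). The 3 intervals do not overlap between stages. The peaks that overlapped the upstream site, with a level of 161 before differentiation, had 26.7 (21.8 to 32.5) in eA and 25.2 (20.5 to 30.5) in lA, and the intervals of the later stages overlap. Past the gene, the aNPC peaks at 7681 and 8756 bp, with levels of 110 and 69.9, had no H3K27ac peak listed later.

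Inside the Olig2 block, the local background that the peak caller compared each summit with was 33.7 to 82.7 times the genome background in aNPC, beside a median of 1.75 over the list. The start-site peak at chr16:91225991-91226665 had a −log10 q of 13.8. Its 527 fragments, a level of 121 (111 to 132), placed it in the top 0.302% of the list by level. The local background was high at the later stages too, so weaker acetylation could go unlisted there. In lA the peak 3964 bp downstream had a level of 16.4 over a local background of 9.28. Its −log10 q was only 3.25. The stitched H3K27ac domain over Olig2, in which peaks up to 12500 bp apart are joined, spanned 26868 bp in aNPC. Its peaks covered 7675 bp, which ranked 243 of 31267 domains. In eA the covered length was 3926 bp (rank 1622 of 31354) and in lA 3850 bp (rank 2101 of 32634).

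H3K4me1 at Olig2 lay on both sides of the acetylated centre, and no H3K4me1 peak touched the gene body at any stage. There were 11, 10 and 9 H3K4me1 peaks in aNPC, eA and lA. The highest of each stage lay at different places, 7611, 4764 and 4604 bp downstream of the start site, with levels of 23.1 (18.7 to 28.3), 18 (14.4 to 22.2) and 15.9. At the site of the aNPC maximum, the level went from 23.1 to 10.5 (7.84 to 13.8) in eA and 7.73 (5.41 to 10.7) in lA, both below the aNPC interval. The aNPC peak 9107 bp downstream, with a level of 19.2 (15.1 to 23.9), had no peak listed later. The ratio of the highest level in lA to that in aNPC, 0.687, was as low or lower in 34.6% of genes with peaks at both stages.

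**Figure D2:**
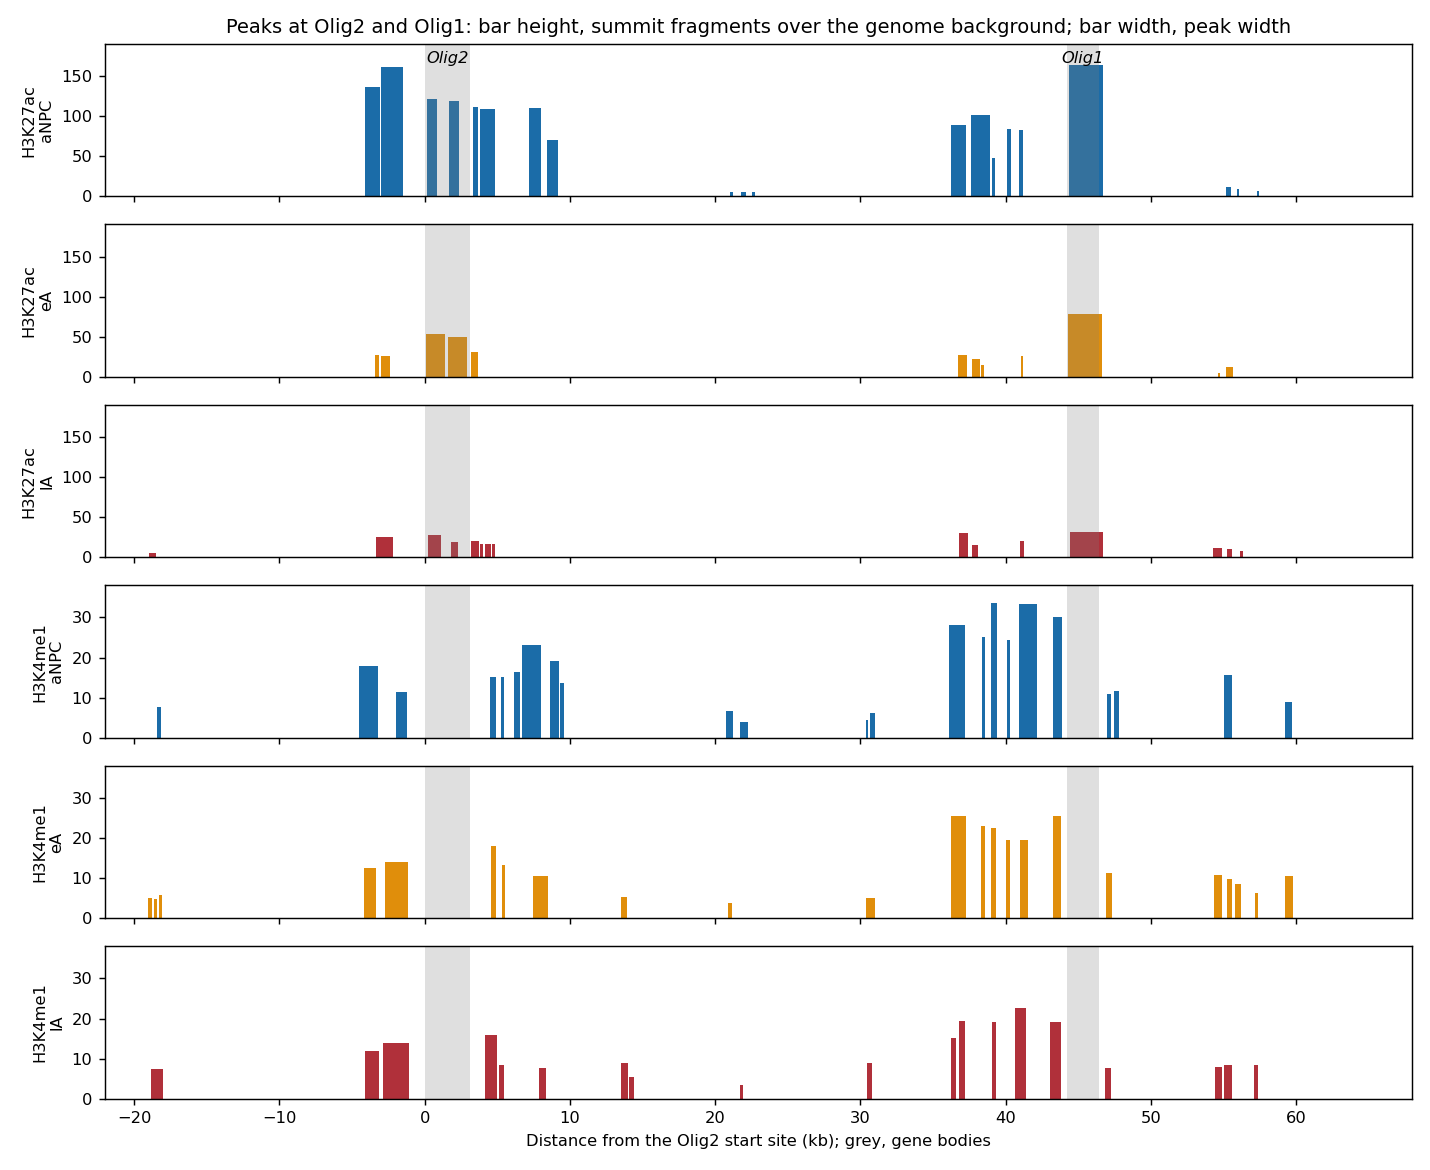
Peaks around Olig2 and Olig1, with the distance from the Olig2 start site in kb on the horizontal axis and the summit level, in times the genome background, on the vertical axes. Rows are H3K27ac and then H3K4me1 in aNPC, eA and lA on 1 scale per mark, bars span each peak and grey marks gene bodies; the highest H3K27ac bar stands at 164 in aNPC and at 31.8 in lA, while H3K4me1 bars stay beside the acetylated centres.

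Olig1 lies downstream on the same chromosome at chr16:91270014-91272184 (plus strand, ENSMUSG00000046160.5). A single broad H3K27ac peak covered its gene body at each stage. In aNPC it was at chr16:91270136-91272488 with 715 fragments, a level of 164 (153 to 177) and rank 43 in the list. In eA it was at chr16:91270086-91272449 with a level of 78.1 (69.4 to 87.6), and in lA at chr16:91270196-91272510 with a level of 31.8 (26.5 to 37.7). The intervals of the 3 stages do not overlap.

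Upstream of Olig1, acetylation was lower already in eA. The site 7101 bp upstream had a level of 89.2 (80.5 to 98.5) in aNPC, 27.8 (22.7 to 33.7) in eA and 29.8 (24.8 to 35.6) in lA. The printed site 6316 bp upstream went from 101 (92.1 to 111) to 22.5 (17.9 to 27.8) and 15.6 (12.0 to 20). Downstream, the site 11224 bp from the start site did not differ beyond counting error, with levels of 12.0 (8.93 to 15.7), 12.6 (9.23 to 16.7) and 10.8 (7.81 to 14.4).

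H3K4me1 stayed on the Olig1 promoter through differentiation. The peak 765 bp upstream of the start site had a level of 30.1 (25 to 36.0) in aNPC, 25.6 (21.3 to 30.5) in eA and 19.1 (15.3 to 23.5) in lA. No H3K4me1 peak touched the Olig1 gene body at any stage. The domain over Olig1 ranked 456, 1089 and 1266 by covered length in aNPC, eA and lA.

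Nkx2-2 (chr2:147003282-147019979, minus strand, ENSMUSG00000027434.9) had 7 H3K27ac peaks in aNPC, a single one in eA, and 0 in lA. The strongest site, at chr2:147003590-147004070, has its summit 8164 bp downstream of the nearest coding start site, in an intron of the longest coding transcript. It held 73 fragments in aNPC, a level of 16.8 (13.2 to 21.1), and 25 in eA, a level of 6.68 (4.33 to 9.87). The other 6 aNPC peaks were weak, with levels of 4.37 to 6.90.

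H3K4me1 was still found around Nkx2-2 in lA. At the intronic site its level was 10.7 (7.74 to 14.4) in aNPC, 5.58 (3.67 to 8.11) in eA and 7.73 (5.41 to 10.7) in lA. Over the annotated 5′ end of the gene, with the aNPC summit 8199 bp upstream of the nearest coding start site and outside the gene body, H3K4me1 was at 19.7 (15.6 to 24.5), 13.6 (10.5 to 17.3) and 10.7 (7.96 to 14.1). All 4 H3K4me1 sites of the window were present in aNPC and in lA, and 3 of them in eA. Neither mark had a peak at the promoters of its 2 coding start sites at any stage.

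Pdgfra (chr5:75548316-75594229, plus strand, ENSMUSG00000029231.9) had little H3K27ac at any stage. Of its 2 annotated coding start sites, only the inner one carried H3K27ac. The peak at chr5:75551945-75552396 had 33 fragments in aNPC, a level of 7.59 (5.22 to 10.7). In eA the peak there reached 8.56 (5.85 to 12.1), and in lA 3.67 (2.05 to 6.05), which is 15 fragments. The intervals of aNPC and lA overlap. H3K4me1 covered the same start site in aNPC at 18.4 (14.5 to 23.1) and in eA at 14.7 (11.5 to 18.5). In lA it was split into a weak peak on the promoter, with a level of 4.51 (2.79 to 6.89), and a stronger one just inside the gene, with 14.4 (11.1 to 18.3).

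Pdgfra had 6, 9 and 10 H3K4me1 peaks in aNPC, eA and lA, beside 5, 1 and 4 H3K27ac peaks. The H3K27ac peaks in lA were weakly called, since the counts were 4, 1 and 0 with a −log10 q of at least 5 and 5, 1 and 1 with the same number of peaks in each list. A site past the 3′ end of the gene, 56943 bp from the inner start site in aNPC, had levels of 6.47 (4.22 to 9.48), 7.43 (5.21 to 10.3) and, in lA, 13.1 (10.0 to 16.8), where its interval no longer overlaps that of aNPC. H3K27ac at that site appeared only in the lA list, with 17 fragments, a level of 4.15 (2.42 to 6.65).

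Cspg4 (chr9:56712911-56747677, plus strand, ENSMUSG00000032911.5) had strongly acetylated introns in aNPC and only weak peaks there 1 day later. In aNPC, 7 intronic peaks from 3032 to 17721 bp downstream of the start site had levels of 23.7 to 43.2. The strongest, at chr9:56729653-56730259, had 188 fragments, a level of 43.2 (37.3 to 49.9). At this site, eA had 14 fragments, a level of 3.74 (2.05 to 6.28), and lA a level of 5.87 (3.76 to 8.73). The ratio of the highest level of the window, 0.155 from aNPC to eA, was as low or lower in 0.335% of genes.

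H3K4me1 was also lower at that Cspg4 site, where it kept a peak. Its levels were 41.8 (35.7 to 48.6), 16.7 (13.3 to 20.8) and 7.30 (5.05 to 10.2) at the 3 stages, and the intervals do not overlap. Cspg4 was the single member whose highest H3K4me1 level in lA was at or below 0.5 times that in aNPC (0.406), 1 of 9 beside 5.71% of genes, and none of the 9 reached that in eA, beside 0.960% of genes. The lA peak in that ratio lies at the promoter of Odf3l1. The stitched H3K27ac domain of aNPC at Cspg4 spanned 70807 bp with 17 peaks, ranked 159 of 31267, and part of it lies outside the window. Odf3l1 and Snx33 reach into the window, so their peaks cannot be assigned to Cspg4 alone. No peak of either mark touched the Cspg4 promoter.

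**Figure D3:**
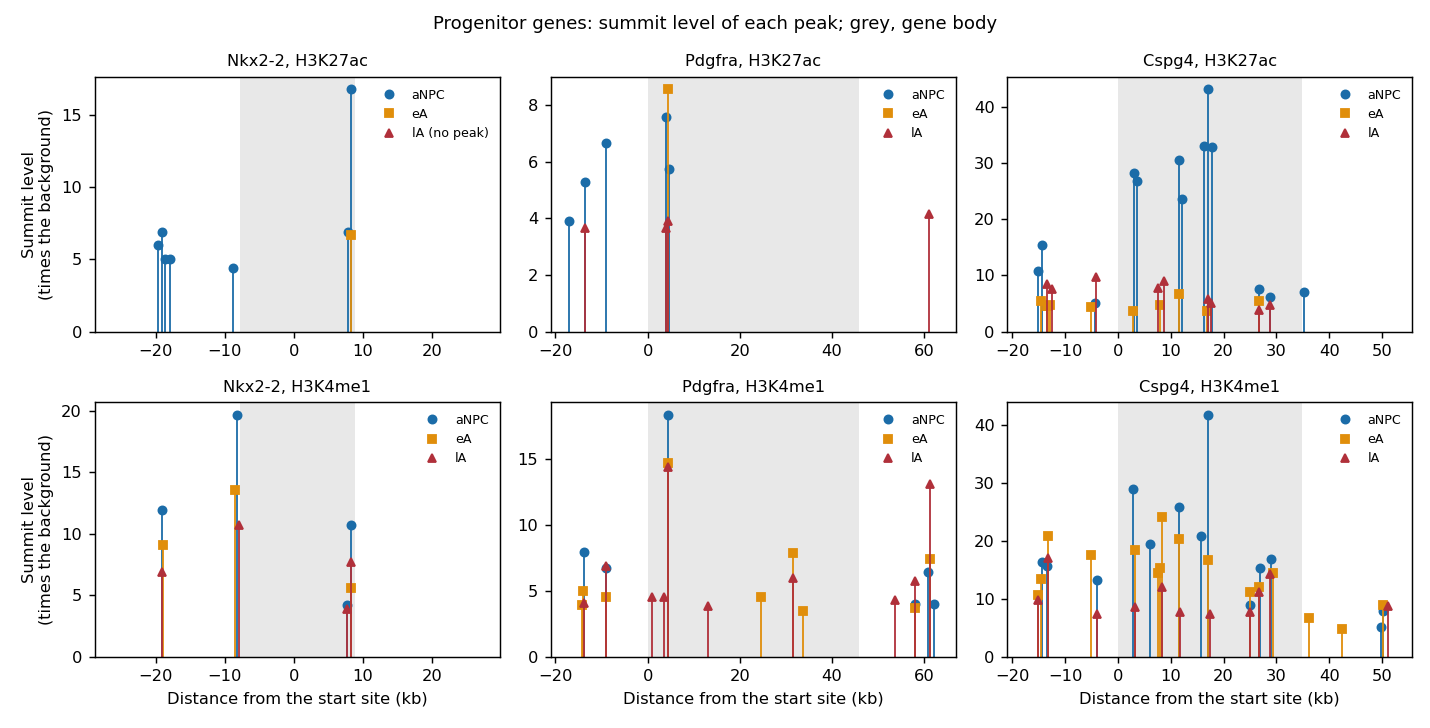
Summit level of every H3K27ac (top) and H3K4me1 (bottom) peak in the windows of Nkx2-2, Pdgfra and Cspg4, in times the genome background, against the distance in kb from the outermost coding start site. Colours and symbols give the stage and grey marks the gene body; the intronic Cspg4 peaks of 23.7 to 43.2 in aNPC have no equal in eA or lA.

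The myelin genes behaved differently from one another. Cnp (chr11:100436218-100453043, plus strand, ENSMUSG00000006782.10), which encodes the nucleotide phosphodiesterase of myelinating cells, was acetylated at its start at all stages. The peak at chr11:100436211-100437081 had a level of 40.2 (34.5 to 46.7) in aNPC. It was 32.1 (26.6 to 38.4) in eA and 13.9 (10.6 to 18) in lA, the last below the other intervals. In lA the peak began inside the gene, past the first 100 bp, and so did not count as a promoter peak.

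Inside Cnp near its start, eA and lA had H3K27ac peaks that aNPC lacked. The peak 2772 bp downstream of the start site had a level of 22.5 (17.9 to 27.8) in eA and its counterpart in lA 16.6 (12.9 to 21.1), with no H3K27ac peak there in aNPC. H3K4me1 was already on that site in aNPC at 17.9 (14.0 to 22.6). The printed site 7228 bp downstream went the other way, with 25.5 (21.0 to 30.7) in aNPC, 9.89 (6.97 to 13.6) in eA and no peak in lA. The strongest H3K27ac peak of the window in eA, with a level of 43.8 (37.4 to 51.1), lay in the body of the neighbour Dnajc7 and cannot be assigned to Cnp. Of the peaks in the Cnp window, 3 of 5 in aNPC, 4 of 10 in eA and 4 of 7 in lA lay in Dnajc7.

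Mbp (chr18:82644538-82755029, plus strand, ENSMUSG00000041607.10), which encodes myelin basic protein and has 11 annotated coding start sites, had more intronic H3K27ac peaks at the later stages. Its H3K27ac peaks numbered 5, 10 and 12 in aNPC, eA and lA, at distances of at least 3175 bp from any coding start site. The strongest site lay upstream of an inner start site and had 2 peaks in aNPC, at 16484 bp with a level of 10.1 (7.35 to 13.6) and at 15843 bp with 13.1 (9.93 to 17.0). In eA these were 1 peak with a level of 25.1 (20.3 to 30.8), and in lA again 2, with levels of 17.4 (13.6 to 21.9) and 21.0 (16.8 to 26.0). The eA interval lies above those of aNPC, and the higher lA peak overlaps the higher aNPC peak by a small margin. Other intronic sites, about 17509 and 33118 bp downstream of the outer start site, were listed in eA and lA alone, at weak levels of 3.91 to 8.02.

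No H3K27ac peak overlapped an Mbp promoter at any stage, whereas H3K4me1 was on the outer promoter throughout, at 11.9 (8.80 to 15.8), 12.8 (9.82 to 16.4) and 9.01 (6.50 to 12.2). The H3K4me1 peaks numbered 19, 21 and 24. Of the 12 H3K27ac sites of Mbp, 7 had H3K4me1 in aNPC and all 12 had it in eA and in lA.

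Mag (chr7:31684202-31699851, minus strand, ENSMUSG00000036634.8), which encodes the myelin-associated glycoprotein at the face between axon and myelin, had no H3K27ac peak in its window at any stage. Its single H3K4me1 peak lay past the 3′ end, 16640 bp from the start site, with levels of 5.22 (3.23 to 7.98), 5.37 (3.51 to 7.87) and 5.37 (3.47 to 7.92). A region with fewer than about 12 fragments at its summit could not be listed, so weak acetylation would not have been detectable.

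Mog (chr17:37147691-37160343, minus strand, ENSMUSG00000076439.5), which encodes the oligodendrocyte glycoprotein of the outer myelin surface, had a single acetylated site of its own, and that site peaked in eA. In eA the peak lies at chr17:37165156-37166315, and its summit is 5465 bp from the start site, outside the gene. It held 75 fragments in aNPC, a level of 17.2 (13.6 to 21.6), 184 in eA, a level of 49.2 (42.3 to 56.8), and 71 in lA, a level of 17.4 (13.6 to 21.9). The eA level is above the intervals of both other stages, which overlap. The ratio between eA and aNPC was 2.85, and 96.3% of genes were at or below it.

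The H3K4me1 of that Mog site was highest before differentiation, with 15.4 (11.8 to 19.8), and lower in eA, with 7.43 (5.21 to 10.3). In lA it was split into 2 peaks, the stronger with 8.58 (6.13 to 11.7). The promoter of Mog had no peak of either mark. The second H3K27ac peak of its window is at the promoter of Zfp57.

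**Figure D4:**
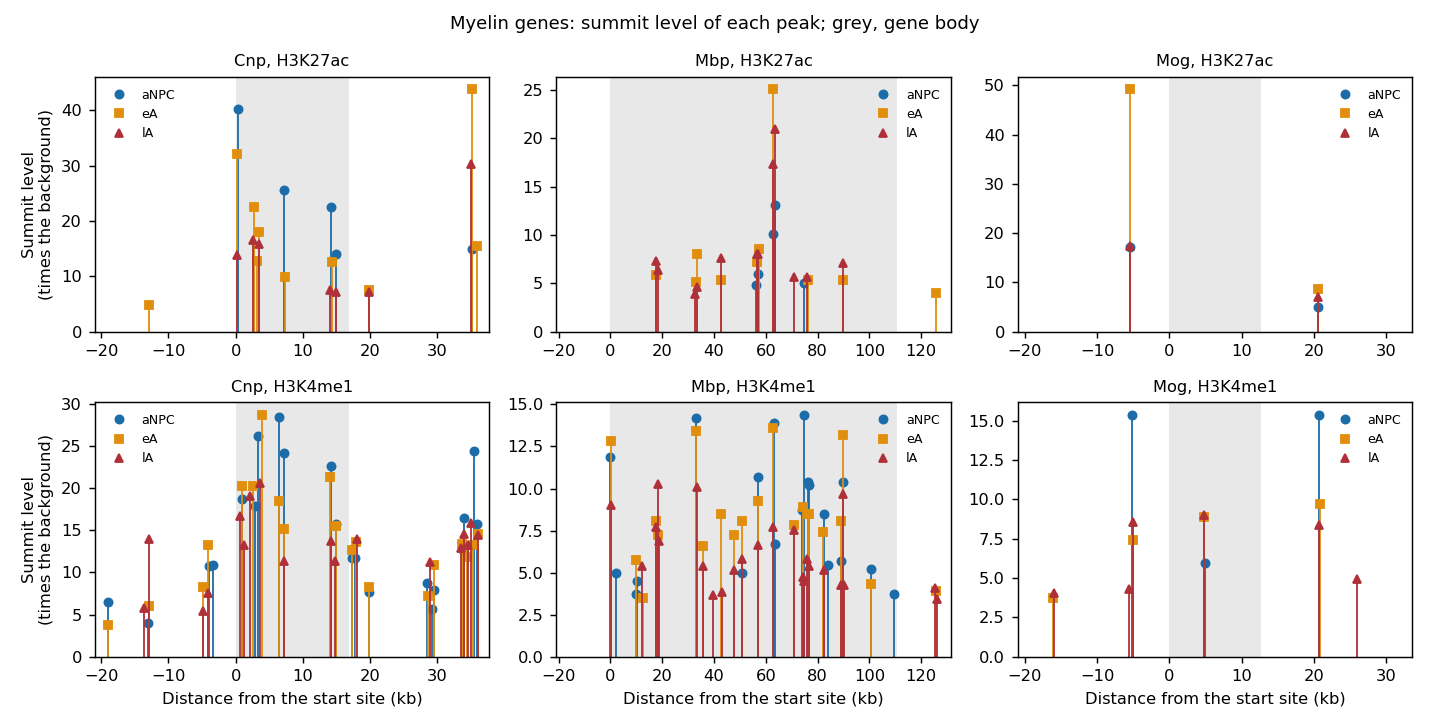
Summit level of every H3K27ac (top) and H3K4me1 (bottom) peak in the windows of Cnp, Mbp and Mog, in times the genome background, against the distance in kb from the outermost coding start site. Colours and symbols give the stage and grey marks the gene body; the Mog upstream site stands at 49.2 in eA between 17.2 in aNPC and 17.4 in lA, and most Mbp H3K27ac peaks lie in the gene body.

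Few of these genes carried either mark on the promoter. A promoter ran from 1 kb before a coding start site to 100 bp after it. H3K27ac overlapped 2 of the 9 promoters in aNPC (Pdgfra and Cnp), 3 in eA (those and Olig1) and 1 in lA (Pdgfra). Among all coding genes the share was 50.6%, 53.2% and 48.2%. H3K4me1 overlapped 3 of 9 at each stage (Olig1, Pdgfra and Mbp), beside 55.4%, 53.6% and 52.7%. The count depends on the boundary, because the start-site peak of Olig2 at every stage, of Olig1 in aNPC and lA and of Cnp in lA begins inside the gene, past the first 100 bp. Within 1 kb on either side of a start site, 4 of 9 genes had H3K27ac at each stage, beside 52.4%, 55.4% and 51.7%. By the same measure, 4 of 9 had H3K4me1 at each stage, beside 63.0%, 62.7% and 61.8%.

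Most peaks were away from promoters. Of the 57 H3K27ac peaks in aNPC, 2 were at the promoter (3.51%), 24 in the gene body (42.1%), 19 upstream (33.3%) and 12 downstream (21.1%). Over the windows of all coding genes these shares were 18.6%, 39.7%, 17.8% and 23.9%. In lA, 1 of 49 was at the promoter (2.04%), 27 in the body (55.1%), 10 upstream (20.4%) and 11 downstream (22.4%), beside 15.6%, 42.2%, 18.4% and 23.8%. From aNPC to lA, 5 of the 9 genes had fewer H3K27ac peaks, beside 24.2% of all genes, and 2 had more, beside 39.0%. Those with fewer were Olig2, Olig1, Nkx2-2, Pdgfra and Cspg4, and those with more were Cnp and Mbp. For H3K4me1, 4 of 9 had fewer, beside 20.7%, and 3 had more, beside 51.5%. For H3K27ac, all 5 progenitor genes had fewer peaks and none of the 4 myelin genes did, although Mag, without any peak, could not. This split depends on the window and the peak cut-off, since within 5 kb of the genes Olig2 (7 and 7) and Pdgfra (2 and 2) had as many in lA as in aNPC, which left 3 of 5 progenitor genes with fewer, beside 20.2% of all genes. With a −log10 q of at least 5, Olig1 had 7 peaks at both stages, which left 4 of 5. None of the 4 myelin genes had fewer in either case. Mag, which had no peak in either, could not, nor could Mog within 5 kb, where aNPC had none. Within 20 kb, 4 of 7 further progenitor genes and 3 of 12 further differentiated genes had fewer H3K27ac peaks in lA. A gene without a peak in aNPC cannot have fewer, and 4 of the 7 and 9 of the 12 had one. All further progenitor genes that could have fewer thus did, as did 3 of the 9 differentiated genes.

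Joined over the stages, the windows held 74 H3K27ac sites, of which 23 were found in aNPC alone. That is 31.1%, beside 21.5% of all 132992 sites. Sites found in lA alone were 6, which is 8.11% beside 19.3%, and 20 were found at all stages, 27% beside 26.0%. Of the 111 H3K4me1 sites, 58 were found at all stages, 52.3% beside 39.1%, and 9 in lA alone, 8.11% beside 23.3%. Sites within a window are neighbours and share their gene, so these shares are descriptions.

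At sites with H3K27ac in aNPC alone, or in eA and lA, the share with H3K4me1 in aNPC was close to that in the whole lists. Of the 23 sites with H3K27ac in aNPC alone, 16, 14 and 13 overlapped H3K4me1 in aNPC, eA and lA, which is 69.6%, 60.9% and 56.5%, beside 68.5%, 63.5% and 49.6% of all such sites. Of the 12 acetylated in eA and lA but not in aNPC, 8 already had H3K4me1 in aNPC (66.7%), beside 70.1%. Of the 6 acetylated in lA alone, 1 had H3K4me1 in aNPC and 6 had it in eA, beside 30.3% and 60.5%. The 20 sites acetylated at all stages had H3K4me1 in 80%, 80% and 75% of cases in aNPC, eA and lA, beside 94.0%, 91.8% and 89.2% of such sites in the lists, and of the 4 at Olig2 a single one had it. At 48 of the 111 H3K4me1 sites (43.2%), no H3K27ac was found at any stage, beside 59.2% over the whole lists. For Mbp these were 15 of 27 sites, and for Pdgfra 8 of 12.

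The share of the window that peaks covered set the genes apart. H3K27ac covered 17.8% of the Olig2 window in aNPC, more than in 99.8% of genes, and 14.7% of the Olig1 window, more than in 99.2%. In lA these shares were 10.0% and 11.4%, still more than in 94.7% and 96.8% of genes. At Cspg4 the share went from 10.2% to 2.89% in eA and 4.62% in lA, and at Mbp from 1.14% to 2.72% and 4.01%. Over the 6 lists, the gene whose covered shares were most like those of Olig2 was Sox4, at a distance of 4.61 percentage points, with 16.6%, 11.5% and 13% for H3K27ac. For Cspg4 it was Psapl1, at 1.28 percentage points, and for Mag Prss2, at 0.190.

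Other genes of the lineage, listed by name, gave a mixed picture. Of 7 further progenitor genes (Sox10, Sox8, Nkx6-2, Gpr17, Zfp488, Lhfpl3 and Ptprz1), 4 had H3K27ac in both aNPC and lA, and 1 of these was at or below 0.5 times the aNPC level in lA. It was Sox8, the gene of a SOX factor, which went from 120 to 25.2 (0.210). With the shift at shared sites taken out, Sox8 stayed at or below 0.5, as did 17.0% of all genes. H3K27ac was on 3, 3 and 2 of the 7 promoters in aNPC, eA and lA, beside 50.6%, 53.2% and 48.2% of all genes. H3K4me1 was on 5, 3 and 3, beside 55.4%, 53.6% and 52.7%. In the window of Sox10, the gene of a central regulator of myelin genes, the highest H3K27ac levels were 18.2, 39.3 and 11.2. No H3K27ac peak lay on its promoter at any stage. Whether peaks in the windows of these further genes lie in neighbouring genes was not examined.

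Of 12 further genes of differentiated oligodendrocytes (Mobp, Mal, Cldn11, Ugt8a, Opalin, Ermn, Aspa, Fa2h, Bcas1, Enpp6, Myrf and Tcf7l2), H3K27ac was on 4, 3 and 3 promoters in aNPC, eA and lA. H3K4me1 was on 11, 11 and 10 of the 12 promoters. The shares over all coding genes were 50.6%, 53.2% and 48.2% for H3K27ac and 55.4%, 53.6% and 52.7% for H3K4me1. Of the 8 with H3K27ac peaks in both aNPC and lA, 4 were at or below 0.5 times the aNPC level in lA (50%), beside the 42.0% of all genes. They were Bcas1 (0.275), Myrf (0.420), Tcf7l2 (0.427) and Opalin (0.445), and with the shift at shared sites taken out Bcas1 alone was, at 0.381. The median ratio of the highest H3K27ac level, lA to aNPC, was 0.548 over the 7 members with peaks at both stages. It was 0.517 over 4 further progenitor genes, 0.480 over 8 further differentiated genes, 0.700 over 12 astrocyte genes and 0.546 over all coding genes. Without peaks in the body of another gene the median of the members was 0.413. That value cannot be set beside the other lists, which keep such peaks. The astrocyte genes, taken by name as well, had H3K27ac on 8, 8 and 9 of 12 promoters, and H3K4me1 on 9, 9 and 8.

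**Figure D5:**
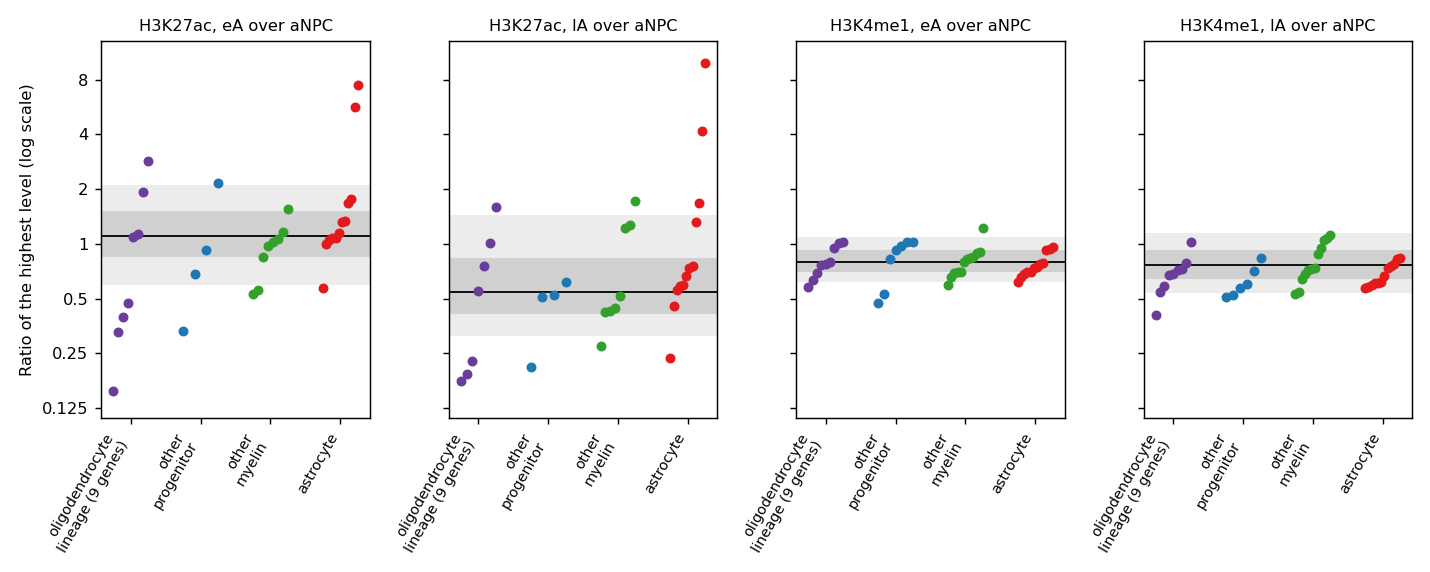
Ratio of the highest level in eA or lA to that in aNPC, on a log scale, for each gene with peaks at both stages, by gene list. Points are genes in order of their ratio, the black line is the median of all coding genes, and the darker and lighter bands span their middle 50% and 80%; Olig2, Olig1 and Cspg4, at 0.176, 0.193 and 0.226 in the H3K27ac panel for lA, lie below both bands.

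Matches to short sets of letters, on either strand, were counted within the 200 bp centred on each H3K27ac summit of the windows. The NF1 half-site TTGGCA was found at 4 of 57 summits in aNPC, 7 of 46 in eA and 6 of 49 in lA, beside 11.1%, 11.5% and 11% of all summits. The AP-1 letters TGANTCA were found at 5, 0 and 3 summits, beside 5.83%, 5.70% and 5.67%. The E-box CAGCTG was found at 5, 4 and 5 summits, beside 12.1%, 12.7% and 12.3%, and 1 of them is printed for the Cspg4 intronic site. The E-box CATATG was found at 2, 2 and 1 summits, beside 3.33%, 3.15% and 3.51%.

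The RUNX letters AACCACA were found at 1, 0 and 2 summits, beside 3.90%, 3.73% and 3.90%, and the Sox letters CCATTGT at 0, 1 and 2, beside 2.69%, 2.59% and 2.62%. The Stat letters TTCCNGGAA were found at none, beside 0.643%, 0.645% and 0.693%. The full NF1 site, of which the half-site can be a part, was also found at none, beside 0.0189%, 0.0252% and 0.0162%. With so few summits, a difference of this size from the whole list cannot be read as one.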

How the data were processed

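H3K27ac and H3K4me1 ChIP-seq peaks of aNPC, eA and lA were used, 1 list per stage and mark, 6 in all. The authors aligned reads uniquely to mm9 with Bowtie, merged 2 replicates with SAMtools (0.1.19 in the submitters' processing notes) and called peaks with MACS2 at default settings without input. The deposited lists give, per peak, an integer score (not used for any value), the fold over local background as a ratio, −log10 of the p- and q-values, and the summit offset. Library depth is not stated in the lists. Because the deposited fold and −log10 p depend on the summit pileup and the local background alone, both were solved for, giving whole fragment counts for 99.991% or more of each list (tolerance 0.001 in −log10 p). Both this step, which was tested on simulated peaks, and the scaling by shared sites were chosen after seeing the data. Mitochondrial peaks (4 or 5 per list) were left out. The genome background is the most common local background of a list. Between lists, −log10 q was not compared.

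Genes came from GENCODE M1 on NCBIM37, the build of mm9. Overlap meant at least 1 bp. Values are descriptions with counting intervals, since merged replicates allow no test. Named peaks were the promoter peaks and the peak with the highest −log10 q of each list, and the strongest peaks by level and sites that differed between stages were added after their values were seen. Printed sequences needed a level of at least 10, and none was taken from chr18, where Mbp lies. The members and lists were chosen with earlier results of these data known. Lineage genes of the lists that are not named in the text are not reported here. Alternatives varied the promoter, the window (50 kb and 5 kb), a −log10 q minimum of 5, equal list lengths and the overlap rule, and, chosen after seeing the data, left out peaks in the body of another gene. RNA-seq and knockdown samples of the 51 samples were not used here, 8 of them because their labels conflict. Analyses used Python 3.11.15, NumPy 2.4.6, pandas 2.3.3, SciPy 1.17.1 and matplotlib 3.10.9.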

Additional observations from a re-analysis of the deposited data

How the results depend on the processing

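Changing the window moved the peak counts in the windows most. With 50 kb on each side, the H3K27ac counts in aNPC, eA and lA were 110, 97 and 98 and the H3K4me1 counts 163, 174 and 161. With 5 kb, they were 36, 31 and 37 for H3K27ac, so that the excess of aNPC over lA seen with 20 kb (57 and 49) was gone, and 59, 62 and 60 for H3K4me1. Taking 1 kb on either side of the start site gave 4 members with an H3K27ac promoter peak in aNPC and 4 in lA. A −log10 q of at least 5, or the same number of peaks in each list of a mark, left 0 in lA. With −log10 q of at least 5, the H3K27ac sites in eA and lA were 7 and those in aNPC and lA 3, and the H3K4me1 sites in aNPC and lA 0. With equal list lengths, the H3K27ac sites in eA alone were 5, the H3K4me1 sites in eA and lA 9 and those in aNPC and lA 1. With a summit required inside the other peak, the H3K27ac sites in eA alone were 7. Scaling by shared sites, or leaving out peaks in the body of another gene, kept all 4 counts of members at or below 0.5 times the aNPC level within 1.5 times. The cause of these moves was not tested. No paired analysis was possible because the replicates were merged before the peaks were called. Depth and the local background limit what is listed, and a site without a peak may hold a weaker mark.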
